A study of Mus musculus with 12 samples.

Results

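Liver and lung of mice on the 0.1 Se diet, the selenium-adequate diet of the study, were compared array by array. The comparison used the 3 arrays titled as liver and the 3 titled as lung on this diet, which are 6 of the 12 arrays of the series. Every animal was a male wild-type mouse of the FVB/N strain. From weaning at 3 weeks of age the mice ate a torula yeast diet low in selenium, to which 0.1 ppm Se was added as sodium selenite, and they were killed after 6 weeks. Whole liver and whole lung were washed in PBS and frozen, and total RNA taken from them was labelled by a 3′ IVT method and hybridized to an Affymetrix mouse array. The labels call the 3 arrays of a group biological replicates. They do not say whether a liver and a lung came from the same animal, or whether the tissues were labelled and hybridized together. The matching 6 arrays of mice on the 0 Se diet (no selenium added) served only to ask whether a tissue difference was also present there. The study itself compared the diets within each tissue, so the contrast between tissues is described here for its own sake.

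A probe set is a group of short probes on the array that measures the RNA of a gene, and its level is given as the log2 of the signal, so that a difference of 1 is a 2-fold change. The deposited table leaves a value blank where the gene was called absent or the signal lay under 100 (6.64 on the log2 scale). Of 29409 probe sets other than array controls, 15814 had at least 2 values in each tissue and were tested. A further 2131 were listed in liver only, 6302 in lung only, 2069 in both with too few values for a test and 3093 in neither. The probe sets listed in 1 tissue only were counted apart, because no level was listed for the other tissue. Liver arrays listed 17235 to 17923 probe sets each and lung arrays 22197 to 22718.

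Liver is built mostly of hepatocytes, which secrete the proteins of blood plasma, make bile, store and release glucose, convert ammonia to urea and oxidize foreign compounds. Its sinusoids are lined by a fenestrated endothelium and hold resident macrophages, the Kupffer cells. Lung is a mixture of many cell types. Thin alveolar type 1 cells and surfactant-making type 2 cells line the airspaces, club and ciliated cells line the airways, and a dense capillary bed, elastic fibres, fibroblasts and leukocytes make up much of the rest. In RNA of whole tissue, fewer cells of a type and less RNA per cell cannot be told apart.

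Most genes that could be tested differed between the tissues. Of the 15814 tested probe sets, 11228 passed adjusted p 0.05 in limma (71.0%), 4555 of them higher in liver (28.8%) and 6673 higher in lung (42.2%). Counted as genes, each standing with its brightest probe set, 2691 of 8482 were higher in liver (31.7%), 3583 were higher in lung (42.2%) and 2208 did not pass. Of all 13710 genes with a single-gene probe set, 949 were listed in liver only and 2471 in lung only. These shares and counts are the background for every count below. Many of the differences were large. A 2-fold difference or more was found for 2409 probe sets in liver and 3614 in lung, 8-fold or more for 377 and 449, and 128-fold or more for 15 and 1. Of the 13989 probe sets with values on all 6 arrays, 10604 (75.8%) had no overlap between the liver and the lung values. The median difference over the genes tested was -0.17 (liver minus lung), and from the 10th to the 90th percentile it ran from -1.86 to 1.54.

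**Figure D1:**
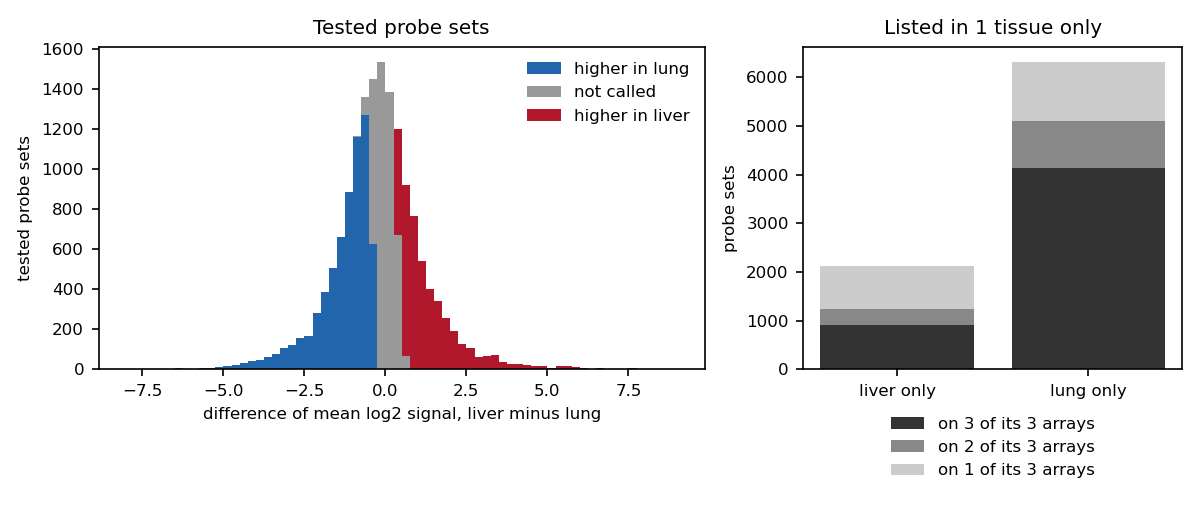
Left, number of tested probe sets by the difference of their mean log2 signal (liver minus lung, 3 arrays each), stacked by whether they were called higher in lung, called higher in liver or not called. Right, number of probe sets listed in 1 tissue only, by the number of its 3 arrays that list them. More probe sets were called higher in lung (6673) than in liver (4555), and about 3 lung-only probe sets were listed for each liver-only one (6302 and 2131).

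The genes listed in 1 tissue only had another make-up in liver than in lung. In liver, 910 of the 2131 were listed on all 3 arrays, with a median log2 signal of 9.65, and 238 of these reached 12 or more. In lung, 4141 of the 6302 were listed on all 3 arrays, with a median of 8.02, and 68 reached 12 or more. The liver-only set therefore held more bright probe sets although it was smaller. For such genes no fold between tissues was computed. The number of times the signal stood above the lowest listed signal of 100 is given in its place, which compares with that floor and not with a measured level, since an absent call can also fall on a higher signal. In probe sets with only 1 or 2 values in a tissue, a listed level below 8 was seen for 86.9% (liver) and 95.5% (lung) of them.

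A direction between tissues depends on how the arrays are scaled, and the MAS5 values had been scaled array by array. Relative to the deposited values, quantile normalization moved the median difference of all probe sets by -0.25, centring on the median by 0.22, centring on ribosomal protein genes by 0.11 and centring on proteasome genes by -0.75. Of the called probe sets 59.4% were higher in lung with the deposited values, 70.2% after quantile normalization, 49.1% after median centring, 54.4% on ribosomal protein genes and 83.8% on proteasome genes. Centring on the poly-A spike-ins, bacterial transcripts added to the RNA before labelling, moved the median by -1.35 and gave 92.8%, and centring on the hybridization controls, added after labelling, moved it by -0.04 and gave 59.7%. Both were chosen after seeing the data. Below, a direction held under these 6 scalings unless the text says where it turned. Probe sets whose name ends in _s_at or _x_at can bind related transcripts, so gene names are less certain for them. For genes with a blank on 1 array of a tissue the fit used the other 2, which was the case in liver for Aldh3b1, Scd2, Lpcat1, Cd14, Klf4, Napsa, Cav1, Thbd, Procr, Col5a2, Acta2, Cd24a, Cytip, Zap70, Ccl5, Gata2, Kit, Cox6a2, Myh10, Hk1 and Pygb and in lung for Alb, Cfp, Fbp1, Abcb4, Tpmt, Bdh1, Hamp, Car3, Zap70 and Acacb. Among the genes described, _s_at or _x_at probe sets include Serpina1b, Urah, Gsn, Lyz1, Ttr, Ager, Pltp, Gpt2, Slco1b2, Cyp2b10, Ces1f, Socs3, Hnf4a, Sox17, Hoxa5, Gja1, Acta2, Fcgr2b, S100a8, Selenow, H2-Ab1, Cxcl1, Uqcrq, Cox7c, Tuba1a, Aldoa and Ldhb.

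Among genes with values on all 6 arrays, the 12 with the largest differences higher in liver were enzymes and secreted proteins of hepatocytes. Cyp2e1, a cytochrome P450 that oxidizes ethanol and other small solvents, had log2 signals of 15.79, 15.94 and 15.86 on the liver arrays and 8.09, 7.38 and 8.13 on the lung arrays. The liver values lay close together and far above the lung values, with a difference of 8.0 ± 0.18 (SE, 255-fold, limma adjusted p = 1.98e-10). Cfi, the complement factor that cleaves C3b, followed with 14.95, 15.03 and 15.13 in liver against 6.89, 7.53 and 7.25 in lung (225-fold). Vtn, the plasma adhesion protein vitronectin, was 203-fold higher in liver. Gnmt and Mat1a, which use and make the methyl donor S-adenosylmethionine, were 189-fold and 183-fold higher. Thrsp, a lipogenic nuclear protein, was 186-fold higher, Gstp3 of the glutathione transferases 180-fold and the soluble epoxide hydrolase Ephx2 141-fold. Ttc36 (135-fold), the protease inhibitor Serpina1b (123-fold), the fatty acid binding protein Fabp1 (109-fold) and the urate pathway enzyme Urah (96-fold) completed the list. The rule that picked these 12, and the 12 of lung below, admitted only genes whose liver and lung values did not overlap. Fabp1 had the widest spread in lung, with 10.98, 7.33 and 9.62 against 16.12, 16.09 and 16.01 in liver, and its SE was 0.67 (adjusted p = 5.36e-06).

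Among genes with values on all 6 arrays, the 12 with the largest differences higher in lung came from the connective tissue, the vessels and the epithelium. Gsn, the actin-severing protein gelsolin, had 14.87, 15.63 and 15.32 on the lung arrays and 8.67, 8.36 and 7.66 on the liver arrays. All lung values were above all liver values, by 7.04 ± 0.25 (SE, 132-fold, adjusted p = 2.54e-09). Mgp, an inhibitor of calcification in vessel walls and cartilage, was 124-fold higher in lung, with 14.21, 14.85 and 14.62 against 7.79, 7.88 and 7.14. Ogn, a small proteoglycan, was 107-fold higher and the membrane protein Pmp22 98-fold. Cav2, a coat protein of the caveolae of endothelium and type 1 cells, was 62.6-fold higher. Foxf1, a forkhead factor of lung mesenchyme and capillaries, had 12.70, 12.88 and 12.73 in lung against 7.20, 7.24 and 7.15 in liver (47.6-fold). Lyz1, a lysozyme of type 2 cells and macrophages, was 47.2-fold higher by an _x_at probe set. Another _x_at probe set of Lyz1 differed by -3.41 (liver minus lung). Its probe set without that ending was dim, with a lung mean of 8.09 and 6.70 on 1 liver array. The flavin monooxygenase Fmo2 was 45.9-fold and the lipid flippase Atp8a1 43.3-fold higher in lung. Ptgfrn (41.7-fold), the small heat shock protein Cryab (41.5-fold) and the procollagen processing enhancer Pcolce2 (40.5-fold) were the last of the 12. Fmo2 varied most in liver, with 9.16, 6.94 and 8.13, and the lowest lung value was 13.29.

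**Figure D2:**
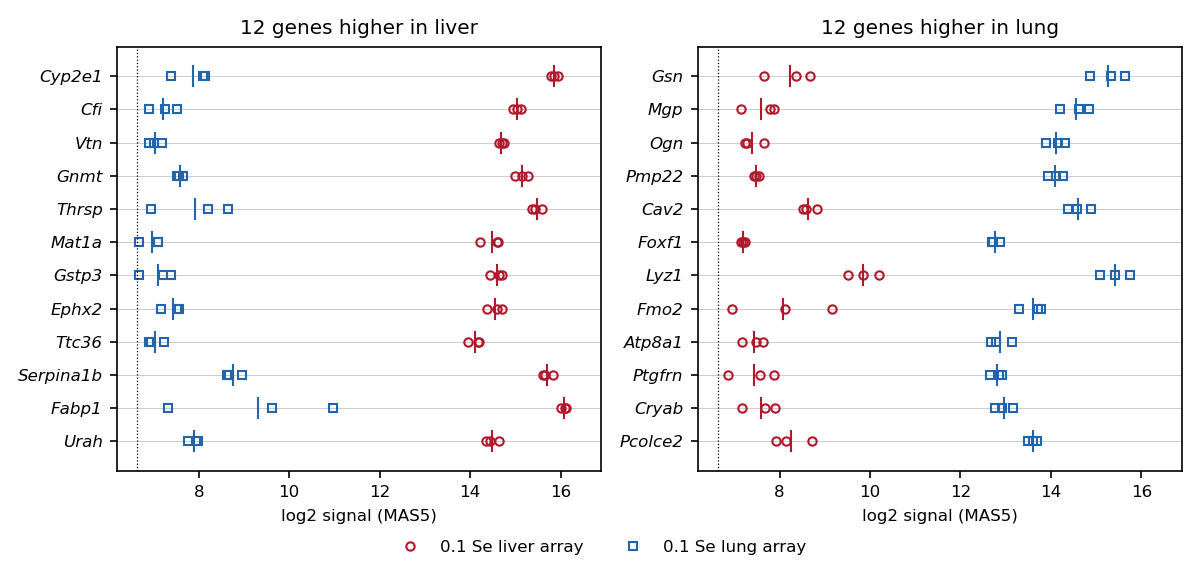
Log2 signals of the 12 genes with the largest difference higher in liver (left) and higher in lung (right) among genes with values on all 6 arrays, so that genes with a blank such as Alb and Cav1 are not shown; each open circle is a liver array, each square a lung array, vertical bars are means of the 3 arrays of a tissue, and the dotted line is the lowest listed value of the table (6.64). Only genes without overlap were picked, so the 2 tissues are apart for every gene shown by selection. Fabp1 in lung and Fmo2 in liver show the widest spread.

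Among genes listed in liver only, the brightest coded for plasma proteins and for cytochromes P450. Serpina1c, a form of the antiprotease alpha-1-antitrypsin, had 16.03, 16.08 and 16.41 on the 3 liver arrays, 739-fold above the floor, with no value on a lung array. Apoa1, the main protein of high density lipoprotein, had 16.02, 16.06 and 16.15 (690-fold above the floor). The thyroxine carrier Ttr (642-fold), Apoa2 (631-fold) and the apolipoproteins Apoh (532-fold) and Apoc3 (499-fold) were of the same kind. Cyp3a11, with 15.95, 15.96 and 15.92, and Cyp2c29, with 15.85, 15.77 and 15.92, are P450 enzymes for drugs and steroids. The fibrinogen chain Fgb and the plasma protease inhibitor Pzp stood 532-fold and 517-fold above the floor, plasminogen (Plg) 484-fold and the homocysteine methyltransferase Bhmt 498-fold.

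In lung, the brightest genes listed there only were products of airway and alveolar epithelium. Scgb1a1, the secretoglobin of club cells, had 15.16, 16.24 and 15.67 on the lung arrays, 529-fold above the floor. Cbr2, a carbonyl reductase of airway cells, had 14.80, 15.34 and 15.17, and Ager, the receptor that marks type 1 cells, 14.70, 15.43 and 15.10. For these 3 genes the lowest value was on lung array 1 and the highest on lung array 2. Scgb3a2, a secretoglobin of the airways, stood 295-fold above the floor. The surfactant proteins Sftpa1 (267-fold) and Sftpd (172-fold) are lectins of the airspace, and Cxcl15 (221-fold) is a chemokine of lung epithelium. Emp2 (240-fold) and Clic5 (113-fold) are membrane proteins of type 1 cells. Sec14l3, a lipid-binding protein, had 240-fold, the semaphorin Sema3c 184-fold and the basement membrane protein Npnt 120-fold.

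Promoter sequence was searched for short motifs of factors known from the 2 tissues, and a few stretches are shown to put letters beside the leading genes. RefSeq windows (mouse build GRCm38.p6, from 250 bases before the start of the transcript) were found for 402 of the 520 genes named by the selection rules. Each stretch has 30 bases on the strand of the gene, 5′ to 3′, with the match in capitals. The 6 liver stretches hold letters of HNF1, HNF4, C/EBP and forkhead factors, the regulators for which hepatocyte promoters are known, and the lung stretches those of NKX2-1 and of serum response factor. The position of the first capital is given from the start of the transcript.
Alb, HNF1 site at -32, chr5:90460826-90460855: gaggtaagtatgGTTAATgatctacagtta
Fabp1, HNF1 site at -107, chr6:71199760-71199789: ttgctctcaggaGTTAATgtttgagcctgg
Serpina1c, HNF1 site at -27, chr12:103904960-103904989, minus strand: gtggtgacattgGTTAATattcactagcaa
Fgb, C/EBP site at -80, chr3:83049925-83049954, minus strand: ctgggaagatgTTGCTCAAatgataaagca
Cyp3a11, HNF4 site at -109, chr5:145879944-145879973, minus strand: aagagagtacCAAAGTCCAgtgatgcaaag
Apoh, forkhead site at -71, chr11:108395215-108395244: gctttagcttcTGTTTACagaaatgaaagt
Sftpa1, NKX2-1 site at -166, chr14:41131610-41131639: ttctgtgccaccCTCAAGggttctaagtgc
Cbr2, serum response element at -108, chr11:120732110-120732139, minus strand: cagttggatgCCATATTTGGggagtgagag

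The HNF1 site (GTTAAT, both strands) was found in 7.2% of all 27025 promoter windows. It was found in 14.4% of the windows of genes listed in liver only on 3 arrays, in 5.07% of those listed in lung only on 3 arrays, in 10.1% of those called at least 8-fold higher in liver and in 2.67% of those called at least 8-fold higher in lung. The HNF4 site (CAAAGTCCA, both strands) was found in 2.78% of liver-only and 0.475% of lung-only windows, against 0.477% of all. In the 8-fold groups it was found in 0.962% (liver) and 0.382% (lung). The C/EBP site (TTGCNCAA, both strands) was found in 7.59% and 2.69% of liver-only and lung-only windows, against 2.92% of all, but in 1.92% and 1.53% of the 8-fold groups, so its share was below that of all windows among genes called at least 8-fold higher in liver. The forkhead site (TGTTTAC, both strands) was found in 5.06% and 2.77%, against 3.55%, and in 4.33% and 1.91% of the 8-fold groups. For the motifs of lung factors the shares were as follows. The NKX2-1 site (CTCAAG, both strands) was found in 13.9% of liver-only and 15.9% of lung-only windows, against 16.2% of all, and the serum response element (searched on both strands) in 1.01% and 1.58%, against 1.57%. The ETS site (CAGGAAGT, both strands) was found in 2.78% and 2.69%, against 3.38%. The RFX site (GTTGCCATG, both strands) was found in 0.253% and 0.951%, against 0.759%, which rests on 1 liver-only and 12 lung-only windows. In the windows called at least 8-fold higher in liver and in lung the shares were 11.1% and 13.4% for NKX2-1, 1.92% and 1.53% for the serum response element, 2.88% and 3.44% for ETS, and 0.481% and 0.382% for RFX. A window was at hand for 395 of 493 liver-only and 1262 of 1666 lung-only genes. These are matches of letters and are given as a description.

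Transport and binding proteins of plasma lay on the liver side. Of the 23 genes for transport and binding proteins of plasma on the table, 15 were listed in liver only, 6 were tested and all 6 were higher in liver, with a median difference of 5.59 against -0.17 over all genes tested. All 23 were listed on each liver array, and 5 to 8 of them on a lung array, so the tissue labels and this marker list went together. Alb (albumin) had 15.79, 15.83 and 15.93 in liver. In lung it was listed at 6.70 on array 1 and 7.15 on array 3 and was blank on array 2, a difference of 8.93 ± 0.15 (487-fold, adjusted p = 1.27e-10). The retinol carrier Rbp4 was 60.5-fold higher in liver and the inter-alpha-trypsin inhibitor chain Itih4 38.4-fold. Azgp1, a lipid-mobilizing glycoprotein, was listed in liver only (402-fold above the floor).

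Coagulation and complement proteins of plasma came next. Of 22 coagulation genes on the table, 15 were listed in liver only, among them the fibrinogen chain Fgg with 15.42, 15.64 and 15.63. Of the 4 tested, 3 were higher in liver (F5 51.2-fold and F7 9.41-fold, both clotting factors, and Vtn 98.4-fold by its brightest probe set). Pros1, the anticoagulant protein S, which vessel cells also make, was higher in lung by 0.65 (adjusted p = 0.000455). All 12 tested complement genes were higher in liver, with a median of 1.89, and 9 more were listed there only, such as C9 and C8g of the membrane attack complex and the lectin Mbl2. Cfb, the alternative pathway protease, was 30.8-fold higher in liver, C6 7.23-fold and properdin (Cfp), which leukocytes make, 4.84-fold. Another probe set of Cfp lay the other way, with values on the 3 lung arrays only (mean 7.97). The 2 complement genes listed in lung only were the receptors C5ar1, at 7.03 on 1 array, and C3ar1, at 6.90 and 6.95 on 2 arrays, all close to the floor.

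Apolipoproteins were divided between the tissues. Of 26 genes for apolipoproteins and lipoprotein assembly, 15 were listed in liver only, 6 of the 10 tested were higher in liver and 4 were higher in lung. Their median was 1.00, which turned negative with centring on the spike-ins. Apoc1 was 48.3-fold and Apoe, which many cell types make, 15.5-fold higher in liver. The genes higher in lung act on lipid at cell surfaces and in plasma. The phospholipid transfer protein Pltp had 13.18, 13.55 and 13.20 in lung and 9.73, 10.03 and 10.09 in liver (10.3-fold). The cholesterol exporter Abcg1 was 5.29-fold higher in lung and lipoprotein lipase (Lpl) 3.8-fold, and Apod was listed in lung only.

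Enzymes that break down amino acids were higher in liver in every tested case. All 23 tested genes passed, with a median of 3.37, and 18 more were listed in liver only. Kmo of the kynurenine pathway was 44.4-fold higher and the mitochondrial alanine transaminase Gpt2 41.9-fold. Tdo2, which opens the tryptophan ring, had 15.40, 15.27 and 15.45 on the liver arrays and no value in lung, and the tyrosine pathway enzyme Hpd stood 391-fold above the floor. The urea cycle had 5 of its 9 genes listed in liver only, among them Cps1 (15.45, 15.38 and 15.43), Otc and Arg1. The lyase Asl and the ornithine carrier Slc25a15 were tested and were 30.4-fold and 32.4-fold higher in liver. Arg2, the mitochondrial arginase of extrahepatic tissues, was listed in lung only, at 8.33, 7.44 and 7.36.

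Genes of gluconeogenesis, glycogen and fructose showed the same one-sidedness. The 11 tested genes were all higher in liver (median 3.33) and the other 7 were listed there only. Fbp1, the fructose bisphosphatase of gluconeogenesis, had 15.59, 15.63 and 15.74 in liver and 6.80 and 6.84 on 2 lung arrays (457-fold). Ketohexokinase (Khk), which traps fructose, was 66.9-fold higher, the glycogen-targeting subunit Ppp1r3b 47.8-fold and pyruvate carboxylase (Pcx) 23.1-fold. Slc2a2 (14.70, 14.69 and 14.88), the liver glucose carrier, Pck1 and the glucose phosphatase G6pc were listed in liver only.

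Bile acid and detoxification genes were often listed in liver only. Of 25 bile acid genes 14 were listed in liver only and 8 of the 9 tested were higher in liver (median 3.71). Cyp7b1, an oxysterol hydroxylase, was 72.1-fold higher, the phospholipid exporter Abcb4 46.9-fold and Cyp27a1, which hydroxylates the sterol side chain, 15.1-fold. The bile acid uptake carriers Slc10a1 and Slco1b2 stood 296-fold and 295-fold above the floor in liver and had no value in lung. Of 46 cytochromes P450 on the table, 29 were listed in liver only and 4 in lung only, and of 11 tested 8 were higher in liver and 3 in lung. The median of those tested was 0.75 and turned negative with centring on the spike-ins. Cyp4f15 was 16.7-fold and Cyp4v3 12.8-fold higher in liver.

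The P450 genes higher in lung were few. Cyp4b1, which is known from lung and activates several protoxins, had 13.75, 14.11 and 13.98 in lung and 10.28, 10.02 and 9.61 in liver, a difference (liver minus lung) of -3.97 ± 0.17 (SE, 15.7-fold higher in lung, adjusted p = 7.67e-09). Cyp20a1, of unclear function, was higher in lung by 0.61 (adjusted p = 0.0423) with liver values of 10.46, 10.41 and 9.49 and lung values of 10.66, 10.51 and 11.01. It did not pass without liver array 3 (-0.29), lung array 1 (-0.64) or lung array 3 (-0.46). Cyp2b10, a phenobarbital-inducible enzyme that is also present in mouse lung, had 13.03, 12.60 and 12.76 in liver and 13.09, 13.45 and 13.43 in lung (adjusted p = 0.00623). It did not pass with median centring (adjusted p = 0.086), by the methods' t-test after Benjamini-Hochberg (adjusted p = 0.0573), on the hybridization controls (adjusted p = 0.438) or in limma's test against a 2-fold difference. Here the groups lay near each other, with the highest liver value just under the lowest lung value. Cyp2s1 stood 12.2-fold above the floor in lung, and Cyp4f16 and the dioxin-inducible Cyp1b1 2.81-fold and 2.15-fold.

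Conjugation enzymes and other oxidoreductases followed the P450 genes. Of 24 tested conjugation genes 20 were higher in liver, 1 was higher in lung and 3 did not pass (median 2.27), and 16 were listed in liver only. The glucuronosyltransferases Ugt2b36, Ugt2b5 and Ugt2b1 stood 366-fold, 355-fold and 330-fold above the floor in liver. Tpmt, which methylates thiopurines, was 51.6-fold higher there. The sulfotransferase Sult1d1 had 13.59, 12.35 and 12.68 in liver and 9.60, 6.81 and 8.54 in lung, a wide spread in both tissues (23.6-fold, SE 0.57 on the log2 scale). Of the microsomal glutathione transferases, Mgst3 was 1.48-fold higher in lung and Mgst2 was listed in lung only. Of 30 other oxidoreductases and esterases tested, 26 were higher in liver and 2 in lung (median 2.36). The folate enzyme Aldh1l1 and the carboxylesterases Ces1f and Ces1e were 67.9-fold, 64.1-fold and 43.5-fold higher in liver. Fmo2 and Aldh3b1 were higher in lung, the latter 2.61-fold, and the retinoic acid-forming Aldh1a2 was listed in lung only.

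Most genes of lipid metabolism were higher in liver. In fatty acid oxidation and ketogenesis 30 of 37 tested genes were higher in liver, 1 was higher in lung and 6 did not pass (median 2.23). The ketone body enzyme Bdh1 was 62.2-fold higher, and the peroxisomal enzymes Ehhadh and Acaa1b 54.2-fold and 52.8-fold. Acsl4, which activates arachidonate, was 1.65-fold higher in lung. In cholesterol synthesis 20 of 21 were higher in liver (median 2.27), with Tm7sf2 at 36.9-fold, Sc5d at 12.5-fold and Fdps at 9.33-fold. The regulator Srebf2 was the exception, with 8.12, 8.08 and 7.81 in liver and 8.81, 8.69 and 9.12 in lung (adjusted p = 0.00107). In fatty acid and triglyceride synthesis 19 of 22 were higher in liver (median 1.79), among them Dgat2, which completes triglycerides, at 30.7-fold. The 3 higher in lung were enzymes of membrane and surfactant lipid. Lpcat1, which makes the saturated phosphatidylcholine of surfactant, had 12.67, 13.01 and 12.86 in lung against 6.93 and 7.32 on 2 liver arrays (52.8-fold), and the elongase Elovl1 was 3.46-fold higher. The last was the desaturase Scd2, described with its liver counterpart below.

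Iron and growth factor genes were mixed. Of 14 tested iron genes 8 were higher in liver and 4 in lung, with a median of 0.81 that turned negative on the spike-ins. Hamp, the iron hormone hepcidin, had 15.23, 14.83 and 15.23 in liver and 7.28 and 6.72 on 2 lung arrays (274-fold), and the iron exporter Slc40a1 that hepcidin removes was 27.1-fold higher in liver. Bmp6, the signal that induces hepcidin and that endothelium makes, was 9.49-fold higher in lung, as were the BMP targets Smad7 (3.67-fold) and Id1 (3.35-fold). In the growth hormone and IGF axis 6 of 18 tested genes were higher in liver and 7 in lung (median -0.34). Igf1, which liver secretes, was 19.9-fold and the growth hormone receptor Ghr 6.0-fold higher in liver. The IGF receptor Igf1r was 8.26-fold and the binding protein Igfbp5 34.7-fold higher in lung. Igfbp1 had 12.48, 12.01 and 10.91 in liver only, lowest on liver array 3.

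Acute phase genes belong largely to plasma as well. Of the 31 measured, 14 were listed in liver only, and of 15 tested 8 were higher in liver, 3 in lung and 4 did not pass. Their median of 1.05 turned negative with the spike-ins. By its brightest probe set the interleukin-1 receptor subunit Il1rap was 60.2-fold higher in liver. Its other tested probe sets differed by 0.8 (limma adjusted p = 0.0103) and by 0.18, which did not pass (limma adjusted p = 0.275). The metalloreductase Steap4 was 10.8-fold higher in liver. The 3 higher in lung were the endotoxin receptor Cd14 (2.54-fold), the cytokine signalling inhibitor Socs3 (2.5-fold) and the kinase Jak1 (1.62-fold). For Socs3 the groups overlapped, with 8.33, 10.50 and 9.11 in liver and 11.10, 10.42 and 10.40 in lung (adjusted p = 0.0183), and the difference did not pass without liver array 1 (-0.83), liver array 3 (-1.22) or lung array 1 (-1.09).

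Transcription factors of the 2 tissues differed by listing and by level. Of the 24 hepatocyte factors measured, 13 were listed in liver only, such as Hnf4a (14.18, 13.92 and 13.99) and Creb3l3. Of the 10 tested, 5 were higher in liver, 3 in lung and 2 did not pass, and the median of 1.11 turned negative on the spike-ins. The retinoid partner Rxra was 7.27-fold, Cebpa 4.29-fold and Hhex 3.83-fold higher in liver. Factors that act in both organs lay the other way, with Gata6 2.88-fold, Foxa1 2.55-fold and Tbx3 6.46-fold higher in lung. All 15 tested lung factors were higher in lung (median -3.54) and 14 more were listed there only, while Sox9 was listed on 1 liver array only, at 7.09. Klf4 had 13.34, 13.18 and 13.11 in lung against 6.87 and 6.91 on 2 liver arrays (79.7-fold), and Sox17 of endothelium and Sox4 were 29.7-fold and 29.9-fold higher. The T-box factors Tbx4 (11.50, 11.52 and 11.39) and Tbx2 and the endothelial factor Erg were listed in lung only. Nkx2-1, the factor that defines lung epithelium, was listed on 1 lung array only, at 7.23. It was named after its values were seen. Of the 12 Hox genes measured, 7 were listed in lung only, led by Hoxa5 with 9.94, 10.93 and 10.72, and Hoxb3 was 3.76-fold higher in lung. Hoxb9 was listed on 2 liver arrays, at 7.33 and 6.85, near the floor.

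**Figure D3:**
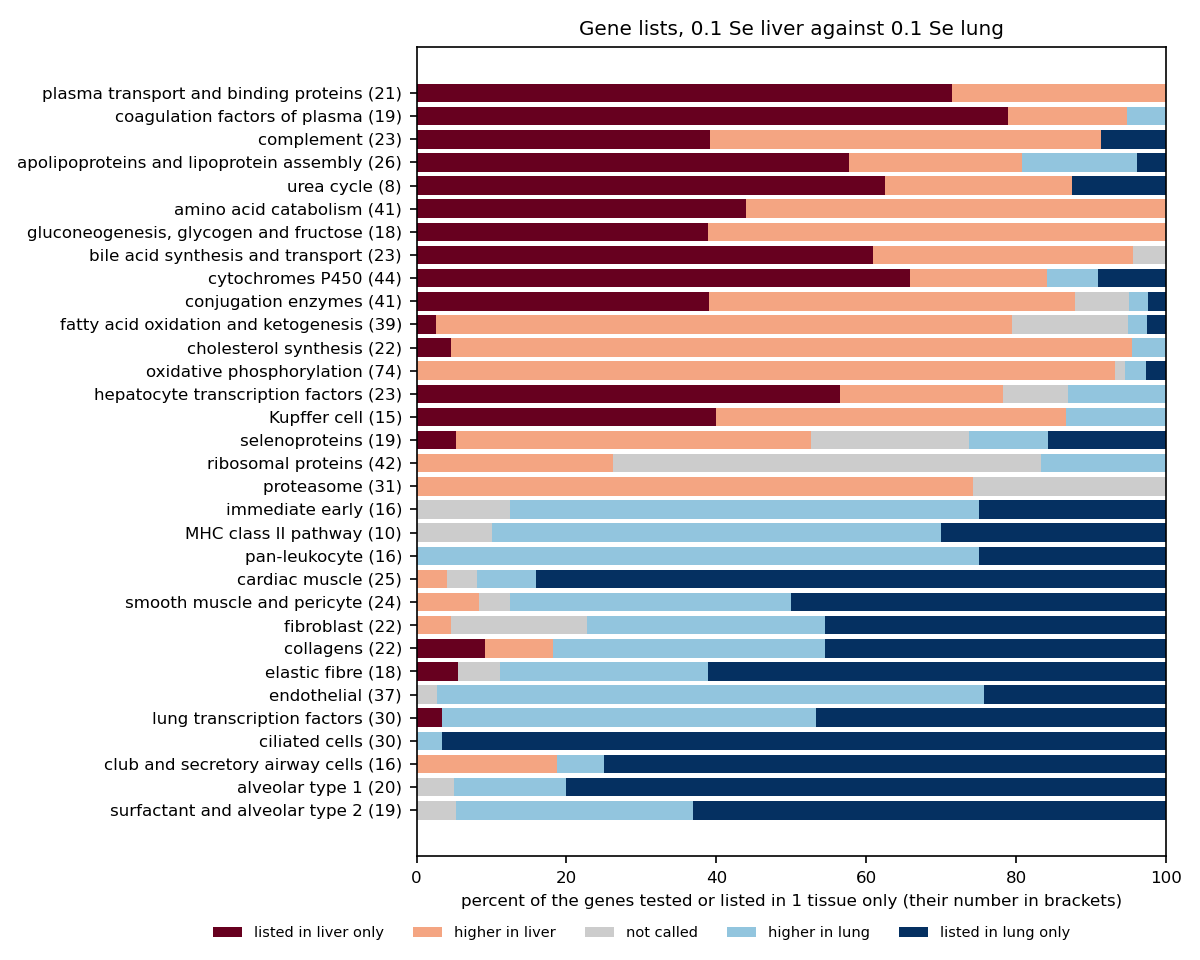
Share of the genes of each list that were listed in liver only, called higher in liver, not called, called higher in lung or listed in lung only (number of genes in brackets; 3 arrays per tissue). Lists of plasma proteins and hepatic metabolism lie on the liver side, lists of lung epithelium, endothelium and matrix on the lung side, and ribosomal proteins have the largest share not called (24 of 42).

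Alveolar genes were checked against the label of the lung arrays. All 20 type 1 genes on the table were listed on each lung array, 16 of them in lung only, and each lung array listed 21 or 22 of the 22 type 2 genes. Of 7 type 2 genes tested 6 were higher in lung (median -3.21), among them the protease Napsa (44.9-fold) and the factor Etv5 (9.25-fold). Sftpc, the surfactant protein particular to type 2 cells, averaged 15.27 on the 3 lung arrays and was listed on 1 liver array at 6.96, so it had too few values for a test. It was named after its values were seen. Of 4 type 1 genes tested 3 were higher in lung. The scaffold Lmo7 was 14.7-fold and Vegfa, the endothelial growth factor, 2.25-fold higher, and Hopx, with 14.33, 15.20 and 14.79 in lung and 12.89, 12.74 and 12.78 in liver, 3.91-fold. Igfbp2 did not differ past the threshold (12.79, 12.37 and 12.40 in liver, 12.19, 12.85 and 12.64 in lung), and its difference of -0.04 turned with median and ribosomal centring. It passed in the direction of lung with quantile (-0.75), proteasome (-0.8) and spike-in scaling (-1.39).

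Most airway genes were listed in lung only. This held for 29 of 35 ciliated cell genes on the table (4 were listed in neither tissue), among them the tubulin-binding Tppp3 (12.41, 11.93 and 12.16), the dynein light chain Dynlrb2 and Ccdc153. Tubb4b, a tubulin of cilia and of many other cells, was the only one tested, 1.67-fold higher in lung, with overlapping values, and did not pass without liver array 1 (-0.37), lung array 1 (-0.69) or lung array 3 (-0.67). The summed signal of the ciliated list was 23534, 13739 and 19015 on lung arrays 1 to 3, so that it was highest on array 1 and lowest on array 2. Of 21 club and secretory cell genes 12 were listed in lung only and 4 in neither tissue. The 4 tested were detoxifying enzymes that hepatocytes also make, and 3 of these were higher in liver. Aldh1a7 was 2.75-fold higher in liver. Aldh1a1 and the naphthalene-activating P450 Cyp2f2 were 1.54-fold and 1.39-fold higher in liver, and both signs turned with quantile normalization, proteasome and spike-in centring. The median of the list, 0.55, turned under the same scalings.

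Transport of fluid and the junctions of epithelium differed by family member. Of 11 tested genes for fluid and ion transport 5 were higher in liver and 6 in lung. The chloride cotransporter Slc12a2 was 8.24-fold and the carbonic anhydrase Car2 6.71-fold higher in lung, and the sodium channel subunit Scnn1g was listed in lung only. Aqp11, a water channel of intracellular membranes, was 22.2-fold and Aqp4 3.26-fold higher in liver, while the mitochondrial carbonic anhydrase Car5a was listed in liver only. Of 14 junction and keratin genes tested 5 were higher in liver, 7 in lung and 2 did not pass. Tjp1 of tight junctions was 5.99-fold and Cdh1 (E-cadherin) 4.01-fold higher in lung, and Epcam and Krt7 were listed in lung only. Krt18 and Cldn12 were 3.3-fold and 3.08-fold higher in liver, and Gjb2 and Cldn2 were listed in liver only. Of the peptide hormone systems, the precursors Agt and Kng1 were listed in liver only and the converting enzyme Ace (11.30, 11.75 and 11.33) in lung only. The angiotensin receptor Agtr1a was 4.18-fold higher in liver and the peptidase Mme 3.82-fold higher in lung. Dpp4 and Enpep did not pass (differences -0.07, which turned with median and ribosomal centring, and 0.02, which turned with quantile, proteasome, spike-in and hybridization control centring). Dpp4 passed in the direction of lung with quantile (-0.56), proteasome (-0.82) and spike-in scaling (-1.42), and without lung array 1 (-0.31).

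Endothelial genes had 27 of 28 tested members higher in lung, against 42.2% of all genes, and the other 9 were listed in lung only (2 had too few values). Their median was -3.66. Cav1, the main protein of caveolae, had 14.42, 15.13 and 14.81 in lung and 7.42 and 8.28 on 2 liver arrays (122-fold). Thbd (thrombomodulin), which turns thrombin anticoagulant, was 77.2-fold higher, with 13.55, 14.42 and 13.87 in lung, and the adrenomedullin receptor Calcrl 32.7-fold. The apelin receptor Aplnr and Tmem100 stood 84.3-fold and 94.9-fold above the floor in lung. For all of these, lung array 2 was the highest and lung array 1 the lowest. In haemostasis of the vessel wall 6 of 7 tested genes were higher in lung, such as Anxa2 (16.8-fold), a receptor for plasminogen activation, and the protein C receptor Procr (7.22-fold). The inhibitor Tfpi2 was 31.5-fold higher in liver, and clotting factor F8, which sinusoidal endothelium makes, was listed in liver only (9.36, 9.10 and 8.93). Of genes known from the sinusoidal endothelium of liver, 4 were listed in liver only (Clec4g, Stab2 and Oit3 the brightest). Of 9 tested 5 were higher in liver, among them the Fc receptor Fcgr2b (5.97-fold) and Bmp2 (3.72-fold). The hyaluronan receptor Lyve1, which lymphatic vessels also carry, differed by -3.70 (liver minus lung), and Wnt2 was 3.13-fold higher in lung. The list's median of 0.43 turned with proteasome and spike-in centring.

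Matrix genes were higher in lung. Of 6 tested elastic fibre genes 5 were higher in lung (median -2.54) and 11 of 19 were listed in lung only. Fbln5, Ltbp3 and Efemp1, which assemble microfibrils and elastin, were 20.9-fold, 16.4-fold and 15.9-fold higher, and Mfap4 and the crosslinking enzyme Lox had values in lung only. Of 10 tested collagens 8 were higher in lung (median -3.40) and 10 more were listed there only. Col4a1 of basement membranes was 16.2-fold and Col5a2 15.8-fold higher. Col1a2 had 13.63, 13.43 and 13.39 in lung and 8.64, 10.76 and 10.03 in liver, with the lowest liver value on array 1 (12.8-fold). Some collagens lay on the liver side, though each also had a probe set listed in lung. Col18a1, the source of endostatin, was 12.9-fold higher in liver, the brightest probe set of Col27a1 was listed there only (11.27, 11.08 and 11.11), and Col14a1 was 1.71-fold higher, a sign that turned with the spike-ins. Another probe set of Col27a1 had values on all arrays and was higher in liver by 1.83 (adjusted p = 5.17e-06). Of 7 laminin and basement membrane genes tested, 6 were higher in lung, for example Lamb1 (14.7-fold), Sparc (9.67-fold) and Nid1 (4.57-fold).

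Mesenchymal cells had the same direction. Of 12 tested fibroblast genes 7 were higher in lung, 1 was higher in liver and 4 did not pass (median -2.77), and 10 were listed in lung only. The growth factor receptor Pdgfra was 32.3-fold and the integrin Itga8 29.1-fold higher in lung, and Limch1 and dermatopontin (Dpt) stood 189-fold and 60.9-fold above the floor, while another probe set of Limch1 was also listed on 1 liver array, at 6.82. Lum, a small proteoglycan, had 9.23, 9.78 and 8.92 in liver and 8.84, 7.84 and 8.18 in lung (adjusted p = 0.0066), with a sign that turned on the spike-ins. Of 12 smooth muscle and pericyte genes tested 9 were higher in lung (median -3.15). Postn (periostin) was 28.2-fold, the nitric oxide receptor subunit Gucy1a1 25.3-fold, Acta2 21.7-fold and Tagln 18.5-fold higher. The pericyte regulator Rgs5 was 4.61-fold higher in liver. Genes of hepatic stellate cells, the pericytes of the sinusoid, were mixed. Of 7 tested 2 were higher in liver, the lectin Colec11 (18.3-fold) and reelin (Reln, 8.13-fold), Pdgfrb was 11.7-fold higher in lung and 4 did not pass. Their median of 0.23 turned with quantile, proteasome and spike-in scaling. Of 9 bile duct cell genes on the table, 5 were listed in lung only and 2 in liver only. The 2 tested were both higher in lung, namely Cd24a (61.7-fold) and Bicc1 (8.53-fold).

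Genes of Kupffer cells lay mostly on the liver side and genes of alveolar macrophages mostly on the lung side. Of 17 Kupffer cell genes 6 were listed in liver only, such as the complement receptor Vsig4 (12.47, 12.52 and 12.15), Cd5l and the lectin Clec4f. Of 9 tested 7 were higher in liver (median 1.55), among them C1qc (3.59-fold) and C1qb (3.21-fold) of the first complement component. The growth factor receptor Csf1r, common to macrophages, was 1.26-fold higher in lung (adjusted p = 0.0168) but did not pass without liver array 1 (-0.29), liver array 3 (-0.31) or lung array 1 (-0.28). Another probe set of Csf1r was higher in liver (0.42, adjusted p = 0.044). Id3, an inhibitor of basic helix-loop-helix factors, was 1.99-fold higher in lung. Of alveolar macrophage genes 6 of 9 tested were higher in lung (median -1.84). The tetraspanin Cd9 was 13.7-fold and Plet1 8.1-fold higher, and Itgax and the chitinase-like Chil3 were listed in lung only. Chil3 had 13.08, 10.63 and 12.27, so that its lung arrays differed by more than 2 log2 units. The mannose receptor Mrc1 was 1.68-fold higher in liver, which turned with proteasome and spike-in centring. Marco, a scavenger receptor counted here both with Kupffer cells and with alveolar macrophages, was listed in liver only (8.21, 8.40 and 8.28).

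Leukocyte genes were higher in lung, and highest on lung array 1. All 12 tested pan-leukocyte genes passed in that direction (median -1.92), such as Cytip (45.3-fold), the actin regulator Coro1a (9.47-fold) and the phosphatase Ptprc, which marks all leukocytes (6.84-fold). The summed signal of this list was 48676, 32106 and 32486 on the lung arrays and 6477 to 9160 on the liver arrays. Of B cell genes 7 of 11 were listed in lung only, led by Ms4a1 (CD20), and of T cell genes 9 of 16, led by Cd3d. Zap70, a kinase of T cells, was 2.93-fold higher in liver on 2 arrays of each tissue. It did not pass with blanks at the lowest value (difference 1.03, limma adjusted p = 0.421), on the spike-ins (0.25, adjusted p = 0.474), on the hybridization controls (1.53, adjusted p = 0.0764), in the test against a 2-fold difference or by the methods' t-test. All 4 tested genes of NK and cytotoxic cells were higher in lung, for example the granzyme Gzma (14.1-fold) and Ccl5 (9.73-fold). Neutrophil genes had 10 of 14 members listed in lung only. S100a8, an abundant calcium-binding protein of neutrophils, had 13.27, 11.15 and 11.35 in lung and 6.99, 8.55 and 7.77 in liver (17.8-fold, SE 0.52). The summed neutrophil signal was 23176 on lung array 1 against 8113 and 7802 on the others. Without lung array 1 the S100a8 difference (liver minus lung) was -3.48. Of the remaining blood cell lists, that of mast cells and basophils had 5 genes on the table. The 2 tested, Gata2 and Kit, were 15.5-fold and 14.2-fold higher in lung, 1 was listed in liver only and 2 in neither tissue. The platelet chemokine Pf4 was 8.99-fold higher in lung. In the monocyte and dendritic list Zbtb46 and Plac8 were 9.48-fold and 2.61-fold higher in lung. Of 10 erythroid genes 4 were listed in liver only, led by Car1 (8.99, 8.47 and 9.07), 2 in lung only, and the 1 tested did not pass. The summed erythroid signal was 1511, 1328 and 1044 on the liver arrays and 2897, 2528 and 2345 on the lung arrays.

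Genes of cardiac muscle and mesothelium were also listed in lung. Of 27 cardiac muscle genes 21 were listed in lung only, among them the myosin Myh6 (12.17, 9.81 and 10.27), the actin Actc1 (12.24, 10.30 and 10.89) and the light chain Myl4 (11.34, 9.95 and 10.31). In each case lung array 1 was the highest. The summed signal of this list was 31105 on lung array 1 and 10190 and 12115 on arrays 2 and 3, against 1922 to 2949 on the liver arrays. The natriuretic peptide Nppa, a defining gene of the atrium, was listed in neither tissue (named after its values were seen). Csrp3 was 5.08-fold higher in liver, with 11.25, 10.90 and 10.62, while Tnnc1 and Cox6a2 were 3.31-fold and 3.21-fold higher in lung. All 8 mesothelial genes were listed on each lung array, 6 of them in lung only. Their order over the arrays was another one, since Upk3b had 10.46, 11.13 and 11.64 and Msln (mesothelin) 9.44, 10.05 and 10.47, both highest on array 3. Fat, skeletal muscle, nerve-like endocrine, stratified epithelial, thyroid and thymic lists had at most 2 members listed in 1 tissue only, all with a mean under 8. Of 6 exocrine pancreas genes the elastase Cela1 was 19.8-fold higher in liver (12.18, 11.45 and 11.74), and Cela2a and Prss2 were each listed on a single liver array near the floor. What part these cells had in the tissue differences was not tested.

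The side on which a gene is low was not equally low on each array. Among 343 probe sets called at least 8-fold higher in liver with values on all arrays, the lung level was highest on lung array 1 for 169, on array 2 for 61 and on array 3 for 113. Fabp1 and Thrsp (8.64, 6.94 and 8.20) are examples. Of the 42 probe sets listed on all liver arrays at 10 or more and on a single lung array, that array was number 1 for 29. Among 354 probe sets called at least 8-fold higher in lung, the liver level was highest on liver array 2 for 182. The medians of the low side ranged from 8.35 to 8.62 in lung and from 8.08 to 8.28 in liver.

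Paired forms of an enzyme or carrier often had 1 form on each side. Scd1, the main desaturase of liver, had 15.62, 15.86 and 15.89 in liver and 14.32, 14.20 and 14.25 in lung (2.89-fold higher in liver). Scd2 had 13.92, 14.27 and 14.33 in lung and 7.40 and 8.46 on 2 liver arrays, a difference (liver minus lung) of -6.24 ± 0.27 (SE, 75.8-fold higher in lung). Both groups of arrays were apart for each gene, in opposite directions. Of pyruvate kinases, Pklr of liver was listed in liver only (10.68, 11.09 and 11.15), while Pkm had 9.62, 9.56 and 9.56 in lung and 7.39 on 1 liver array. Glycogen phosphorylase Pygl was 9.73-fold higher in liver and Pygb of brain 5.57-fold higher in lung. Lactate dehydrogenase Ldha was 4.2-fold higher in liver and Ldhb 6.05-fold higher in lung. The hexokinases Hk1 and Hk2 were 5.29-fold and 3.07-fold higher in lung, aldolase Aldoa 2.23-fold and the general glucose carrier Slc2a1 1.92-fold. The phosphofructokinase Pfkl did not pass (difference -0.38, adjusted p = 0.0946; -0.52 without liver array 2, which passed) and Pfkp was listed in lung only (10.49, 10.49 and 10.44).

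Carriers, channels and binding proteins behaved in the same way. Among water channels, Aqp9, a glycerol channel of hepatocytes, had 13.68, 13.72 and 13.65 in liver and 6.69 on 1 lung array. Aqp1 was 5.5-fold higher in lung, Aqp8 was listed in liver only and Aqp5 of type 1 cells in lung only (12.06, 12.28 and 12.25). Carbonic anhydrase Car3 was 20.8-fold higher in liver, although it was bright on 2 lung arrays (11.74 and 11.53) and blank on the other, and Car4 of capillaries was listed in lung only. The connexin Gjb1 was listed in liver only and Gja1 was 12.3-fold higher in lung. Claudin Cldn1 was 6.01-fold higher in liver, and Cldn18, whose lung form seals the alveolus, was listed in lung only (13.19, 13.40 and 13.45). The prostaglandin carrier Slco2a1 was 4.72-fold higher in lung, opposite to Slco1b2. The amino acid carriers Slc38a3 and Slc7a2 lay on the liver side (listed in liver only, and 12.1-fold higher), and Slc7a1 was listed in lung only. Flavin monooxygenase Fmo5 was 23.2-fold higher in liver, against the lung form Fmo2. Some pairs did not split. Acaca and Acacb, the acetyl-CoA carboxylases, were 3.45-fold and 8.9-fold higher in liver, and both alanine transaminases, Gpt (10.4-fold) and Gpt2, were higher in liver. Hmgcs1 of cholesterol synthesis was 2.98-fold higher, and Cox4i1 of cytochrome oxidase 2.45-fold, a sign that turned on the spike-ins, with Cox4i2 of lung listed in lung only. Fabp4 of fat and capillaries did not pass (difference -0.53, adjusted p = 0.169), but did without lung array 2 (-0.93).

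Selenoproteins contain selenocysteine and include the enzymes that remove peroxides and activate thyroid hormone, and the liver secretes the selenium carrier Selenop. Of the 22 selenoprotein genes measured, 15 were tested, of which 9 were higher in liver, 2 higher in lung and 4 did not pass. The median was 0.66 against -0.17 over all genes, and it turned negative with quantile, proteasome and spike-in scaling. The largest difference was that of Sephs2, which makes the selenium donor for selenocysteine and is itself a selenoprotein. It had 14.49, 14.34 and 14.48 in liver and 9.26, 9.41 and 9.38 in lung, a difference of 5.09 ± 0.10 (34.0-fold, adjusted p = 1.19e-10). The methionine sulfoxide reductase Msrb1 was 8.45-fold, the mitochondrial Selenoo 4.98-fold and the phospholipid enzyme Selenoi 3.22-fold higher in liver, though a dimmer probe set of Selenoi was higher in lung (-0.65, adjusted p = 0.0143). Gpx1, the cytosolic glutathione peroxidase, had 15.29, 15.26 and 15.24 in liver and 13.26, 13.54 and 13.32 in lung (3.71-fold). For these 5 genes every liver value was above every lung value.

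Other selenoproteins differed less. Selenop had 15.69, 15.71 and 15.80 in liver and 14.27, 15.01 and 14.76 in lung, so the secreted carrier was 2.08-fold higher in liver (adjusted p = 0.000223), a sign that turned on the spike-ins. The lipid peroxidase Gpx4 was 1.7-fold higher, turning with quantile and spike-in scaling, and the thioredoxin reductase Txnrd1 1.58-fold, turning with proteasome and spike-in centring. Selenos of the endoplasmic reticulum passed narrowly (0.33, adjusted p = 0.0456) and turned under quantile, proteasome and spike-in scaling. It did not pass without liver array 2 (0.25), liver array 3 (0.28), lung array 1 (0.25) or lung array 2 (0.34). Another probe set of Selenos was higher in liver by 0.64 (limma adjusted p = 0.00253), and the remaining probe set did not pass (-0.02). Selenof (0.12), Selenot (0.06), Selenoh (-0.02) and Selenok (-0.15) did not pass. Each of these 4 turned under at least 1 scaling, the first 2 with quantile, proteasome and spike-in scaling, Selenoh with median and ribosomal and Selenok with median centring. Another probe set of Selenot, with values on all arrays, was higher in liver by 0.55 (limma adjusted p = 0.000955). Selenow, a small thioredoxin-like protein, was 2.95-fold higher in lung, with 11.90, 12.20 and 12.19 against 10.68, 10.69 and 10.25, and the thioredoxin glutathione reductase Txnrd3 1.5-fold.

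Most of the remaining selenoproteins had values in 1 tissue only or too few for a test with the probe set that represents the gene. Dio1, the deiodinase that activates thyroid hormone in liver, had values from 12.63 to 13.80 on the 3 liver arrays and no value in lung (90.6-fold above the floor). Gpx3, the secreted peroxidase of plasma, had 12.13, 12.77 and 12.49 in lung and no value in liver, Gpx2 of epithelia 9.57, 8.69 and 9.10, and Selenon of muscle and connective tissue 8.08, 8.04 and 8.29. Selenom had 9.63, 9.50 and 9.73 in lung and 6.98 on 1 liver array. Txnrd2, the mitochondrial thioredoxin reductase, had 9.05, 9.05 and 9.27 in liver and 7.93 on 1 lung array. Another probe set of Txnrd2 had values on all arrays and was higher in liver by 1.30 (adjusted p = 0.000297). Dio2 was near the floor in both tissues.

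**Figure D4:**
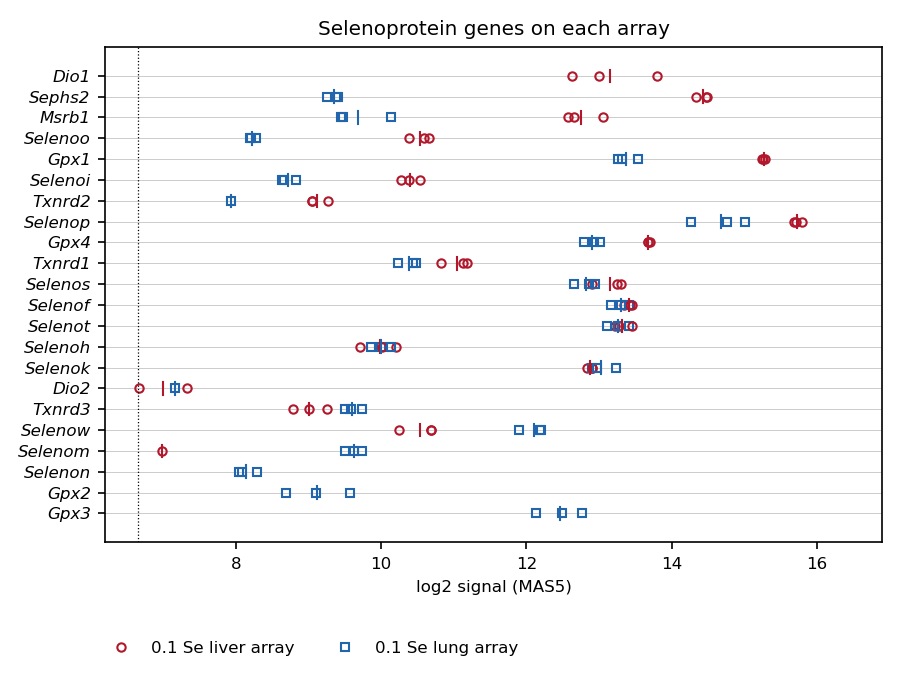
Log2 signal of each selenoprotein gene on each array, ordered by the tissue that was higher; circles are liver arrays, squares lung arrays, vertical bars are means of the listed values of a tissue and the dotted line is the lowest listed value (6.64). Dio1 has values in liver only and Gpx3, Gpx2 and Selenon in lung only, the values of Selenos, Selenof, Selenot and Selenoh overlap between tissues, and those of Selenok nearly meet.

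Genes that make selenocysteine and carry selenium were mostly higher in liver, with 7 of 11 tested, 2 higher in lung and 2 that did not pass (median 0.61, negative under proteasome and spike-in centring). Cth, which splits cystathionine to give cysteine, was 27.0-fold higher, the selenocysteine lyase Scly 2.92-fold and the synthase Sepsecs 2.88-fold. Secisbp2l was 1.69-fold higher in lung, and the receptor Lrp2 was listed in lung only. Of the other antioxidant enzymes 18 of 21 were higher in liver (median 1.44). Catalase (Cat) had 15.28, 15.24 and 15.21 in liver and 12.85, 12.77 and 12.70 in lung (5.54-fold). Msra and the glutathione-making subunit Gclm were 13.3-fold and 7.12-fold higher. Forms of the secretory pathway and matrix lay on the lung side. Msrb3 was 6.39-fold and the peroxidase Gpx7 2.88-fold higher in lung, and Gpx8 and the extracellular superoxide dismutase Sod3 were listed in lung only.

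Immune genes of many cell types were mixed. Interferon-induced GTPases had 7 of 10 members higher in lung and 1 higher in liver (median -1.36). Gbp2 was 10.5-fold, Gbp7 4.58-fold and Gbp8 3.44-fold higher in lung, and Iigp1 2.89-fold higher in liver. MHC class II genes had 6 of 7 tested members higher in lung (median -1.31), such as the invariant chain Cd74 (12.64, 11.89 and 12.25 against 10.15, 10.20 and 10.13), H2-Ab1 (3.88-fold) and H2-Aa (3.27-fold). Of 14 MHC class I pathway genes 2 were higher in liver, 6 in lung and 6 did not pass, with a median of -0.21 that turned with median centring. H2-M3 was 4.24-fold and the peptide carrier Tap2 2.45-fold higher in lung, and H2-Q10, a class I molecule secreted by liver, was listed in liver only (14.09, 14.11 and 14.23). B2m and the peptidase Erap1 were 1.49-fold and 1.62-fold higher in liver, and both signs turned with proteasome and spike-in centring, that of B2m also with quantile normalization. Of 13 chemokines tested 7 were higher in liver and 5 in lung (median 0.49, negative under proteasome and spike-in centring). A further 5 were listed in lung only and 0 in liver only. The summed chemokine signal was 15864, 16354 and 15776 on the liver arrays and 42618, 38702 and 40990 on the lung arrays. Ccl9 and Cxcl1 were 7.99-fold and 7.69-fold higher in liver, and Ccl6 of macrophages 3.59-fold higher in lung.

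Genes of functions shared by all cells differed too. Oxidative phosphorylation had 69 of 72 tested genes higher in liver, with a median of 1.43 under the deposited scaling. The ATP synthase subunit Atp5g1 was 7.75-fold, Uqcrq and Uqcrfs1 of complex III 7.57-fold and 5.9-fold, and Sdhb of complex II 5.05-fold higher. Cox7c was 2.13-fold higher in lung by its brightest single-gene probe set, the muscle form Cox6a2 was also higher in lung, and Cox8b of muscle was listed in lung only. Proteasome genes had 23 of 31 higher in liver and none higher in lung (median 0.81, negative on the spike-ins), led by Psmd8 (3.58-fold) and Psmb7 (2.84-fold). Ribosomal protein genes had 11 of 42 higher in liver, 7 higher in lung and 24 that did not pass. Their median was 0.00 to 2 decimals, and it turned with median and ribosomal centring. Rps25 was 4.68-fold and Rpl12 2.04-fold higher in lung.

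Cytoskeletal genes had 18 of 22 members higher in lung (median -1.74). Ezr (ezrin), which ties membrane to actin, was 31.7-fold higher, with 12.21, 12.09 and 12.18 against a liver mean of 7.17 ± 0.26 (SD, n = 3). The non-muscle myosin Myh10 and the tubulin Tuba1a differed by -4.52 and -4.47 (liver minus lung), and the tubulin Tuba4a 3.67-fold higher in liver. Cell cycle genes had 7 of 10 members higher in lung and none in liver (median -0.88), including both the cyclin Ccnd2 (8.91-fold) and the inhibitor Cdkn1b (4.44-fold). The inhibitor Cdkn1a was listed in lung only. Of immediate early genes 10 of 12 were higher in lung and none in liver (median -2.25). Klf6 was 18.7-fold, Jun 14.9-fold and Ccn1 11.5-fold higher, and Ier3 was listed in lung only (11.72, 12.37 and 12.61).

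A few bright probe sets lay almost on the same level. The rule named 6 of the 500 brightest tested probe sets with differences nearest to 0. They belong to the translation genes Eef1b2, Rps15 and Eif3e, the phosphatase Ppp1cc, the signal peptidase subunit Spcs1 and the class I gene H2-D1. Spcs1, for example, had 13.28, 13.04 and 13.27 in liver and 13.14, 13.25 and 13.18 in lung, a difference of 0.01 ± 0.11 (SE). All 6 differences were within 0.01 of 0 with overlapping arrays, and every sign turned under some scaling, so their place near 0 belongs to the deposited scaling. It also belongs to the probe set, since other probe sets of 4 of these genes were called higher in lung. Their differences (liver minus lung) were -2.51 and -0.58 for H2-D1, -1.01 for Ppp1cc, -0.58 for Spcs1, and -0.32 and -0.36 for Eif3e.

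Different probe sets of a gene did not always give the same direction. Of 2250 genes with 2 or more called probe sets, 176 (7.82%) had probe sets called in opposite directions, and in 9 of these both differences were at least 1 on the log2 scale. Cp, the copper-binding ferroxidase ceruloplasmin, gave the widest contrast. Its brightest probe set had 15.53, 15.63 and 15.57 in liver and 12.53, 12.27 and 12.65 in lung (8.53-fold higher in liver). A different one had 13.88, 14.03 and 13.90 against 9.94, 9.78 and 9.84 (17.0-fold higher in liver), and another 7.65, 8.04 and 7.20 against 10.62, 10.51 and 10.90 (8.27-fold higher in lung). The arrays of the tissues were apart on each. Whether these probe sets measure different transcripts was not tested. The phosphatase subunit Ppp2r5c (1.52 and -1.91), the GMP synthase Gmps (1.33 and -1.24), the deadenylase Cnot7 (1.20 and -1.27), the ubiquitin-conjugating enzyme Ube2a (1.19 and -1.23) and the lipid enzyme Cds2 (1.56 and -1.15) were the next. The positive values of Gmps, Cnot7 and Ube2a turned on the spike-ins.

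The same tissue contrast in mice on the 0 Se diet had the same form. Of the 11228 probe sets called on 0.1 Se, 10818 could be tested on 0 Se, and 10757 of these (99.4%) differed in the same direction there. Of those called with at least 2-fold, 5755 of 5756 did. Of the probe sets listed in liver only on all 3 arrays, 724 of 910 (79.6%) were also listed in liver only on all 3 arrays of 0 Se, and in lung 3292 of 4141 (79.5%). The 0 Se arrays had no part in the calls, but they share the array type, the strain and the processing. The interaction of tissue and diet, tested by limma over the 12 arrays, called 0 of 15112 probe sets (smallest adjusted p = 0.147), while 931 had an unadjusted p under 0.05. Cyp2e1 differed by 8.0 on 0.1 Se and 7.02 on 0 Se (interaction adjusted p = 0.814).

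Spike-in controls differed between the tissues and bear on every scaling. All 22 poly-A spike-in probe sets were higher in liver, by a median of 1.36, with array means of 9.96, 10.02 and 9.82 in liver and 8.29, 8.88 and 8.58 in lung. The 18 hybridization controls differed by a median of 0.01, but their lung arrays were spread, with means of 11.80, 13.34 and 12.45 against 12.63, 12.52 and 12.54 in liver. With centring on the hybridization controls 4081 probe sets passed, and on the poly-A spike-ins 13810, of which 989 were higher in liver. The lists of plasma proteins, amino acid catabolism and gluconeogenesis had medians higher in liver, and those of lung transcription factors, endothelium, collagens and leukocytes medians higher in lung, under each scaling tried. The median of oxidative phosphorylation was 1.43 with the deposited values, 0.70 with quantile normalization, 0.67 with proteasome centring and 0.08 on the spike-ins.

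**Figure D5:**
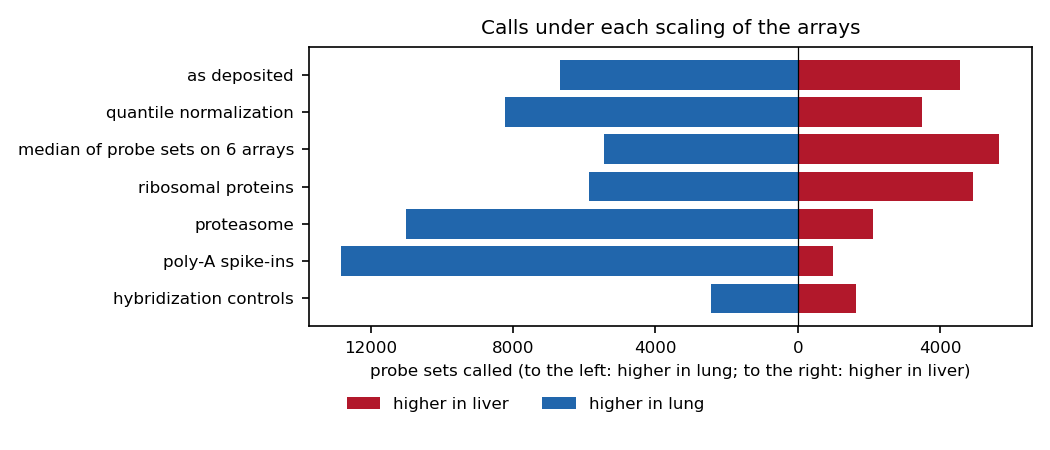
Number of probe sets called higher in lung (bars to the left) and higher in liver (bars to the right) under each scaling of the arrays, by limma at adjusted p 0.05 over 15814 probe sets. The share of lung calls ran from 49.1% after median centring to 92.8% on the poly-A spike-ins, and the hybridization controls gave the fewest calls (4081).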

How the data were processed

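RNA of whole liver and lung was measured on Affymetrix mouse arrays. Per the labels and the methods, the authors computed MAS5 signals in R 2.15.2 with affy 1.36.0 and deposited log2 values of them, with absent calls and signals under 100 left blank. No other normalization between arrays is stated. The values are intensities of hybridized probes, so their precision is limited by the number of arrays, 3 in each tissue.

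All 6 arrays of the 0.1 Se diet entered 1 fit with tissue as the only term, by limma 3.58.1 in R 4.3.3 (lmFit and eBayes with a trend, two-sided, Benjamini-Hochberg over all tested probe sets, threshold 0.05). A probe set needed 2 values in each tissue, and blanks stayed missing. Of 29467 probe sets 58 were array controls, 24504 had a single gene in the platform annotation (24434 matched to RefSeq by Entrez number), 660 had several and 4245 had none. Only single-gene probe sets gave gene names. The probe set with the highest mean level represented a gene. Folds are 2 raised to the difference. On simulated data the fit recovered 57% of probe sets changed 1.5-fold, 94.5% of those changed 2-fold and 100% of those changed 4-fold, with 24 false calls among 15214. Named genes were the 12 with the largest differences without overlap among called probe sets with values on all 6 arrays, and the 12 brightest listed in 1 tissue only, for each tissue. They were also the leading members of 70 lists, the members called against their list, all selenoproteins, 33 pairs of isoenzymes, genes whose probe sets disagreed, and the 6 nearest to 0 among the 500 brightest probe sets. The members and lists were chosen with earlier results of these data known. Replicate numbers were treated as not pairing the tissues, because the labels do not say whether they do. Deviations of same-numbered arrays from their tissue means had correlations of -0.009, 0.02 and -0.04. With 3 arrays in each tissue these values cannot show whether 2 arrays share an animal. Other scalings, filters, variance models, a replicate block, the methods' t-test and leaving out each array were tried. Tables were handled in Python 3.11.15 with pandas 2.3.3.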

Additional observations from a re-analysis of the deposited data

Results flagged for a closer look

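The poly-A spike-in controls, which the comparison of the tissues did not use, carried a tissue difference. Their median difference (liver minus lung) was 1.36, and all 22 probe sets were higher in liver, by 0.64 to 1.96. Groups of 3 arrays were too small for a test of single outlying arrays.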

How the results depend on the processing

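The called counts stayed within 1.5 times of the values given under most alternatives, and the exceptions follow. Testing only probe sets with a mean above the median left 6216 calls (2893 higher in liver, 3323 in lung), since fewer were tested. A test against a 2-fold difference (limma treat) gave 3772 (1585 and 2187), and centring on the hybridization controls 4081 (1646 and 2435). Proteasome centring gave 2122 higher in liver and 11011 in lung, the poly-A spike-ins 989 and 12821, and blanks set to the lowest value, with no filter, 11378 in lung. The cause was not tested. The methods' t-test called 10767 unadjusted and 10048 after Benjamini-Hochberg. Leaving out an array gave 10142 to 10525 calls. Counts of probe sets listed in 1 tissue fell to 910 (liver) and 4141 (lung) when all 3 arrays were required, and to 917 and 2954 with a mean at least 1 log2 unit above the floor. Genes with disagreeing probe sets numbered 61 with the stricter mean filter, 116 on the proteasome, 40 on the spike-ins and 2 each with treat and the hybridization controls. Of 58 lists with at least 2 tested members 28 had a median higher in liver, and 15 on the spike-ins.

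With the replicate block 11021 probe sets were called. The labels do not say whether the replicate numbers pair the samples, and the block changed no call of a gene described. The interaction with diet, 0 calls in the limma fit (931 at unadjusted p under 0.05), had 3 calls with the replicate block, 1 without 0.1 Se liver replicate 2 and 3 without 0 Se lung replicate 1, so 0 to 3 over the arrays left out.

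Of 278 tested probe sets of the genes described 263 were called, and 200 of these held their call and direction in every alternative that tested them. Calls were lost without a change of sign by 50 in the test against a 2-fold difference, 40 on the hybridization controls, 17 on the spike-ins, 12 by the methods' t-test after Benjamini-Hochberg (8 unadjusted) and at most 5 in each other alternative, and 15 changed sign in some scaling. With quantile normalization the difference became -0.14 for Aldh1a1, -0.32 for Cyp2f2, -0.22 for B2m, -0.09 for Gpx4 and -0.47 for Selenos. With proteasome centring it became -0.13 for Aldh1a1, -0.28 for Cyp2f2, 0.00 for Mrc1, -0.05 for Erap1, -0.17 for B2m, -0.43 for Selenos and -0.09 for Txnrd1. On the spike-ins it became -0.73 for Aldh1a1, -0.87 for Cyp2f2, -0.58 for Col14a1, -0.33 for Lum, -0.60 for Mrc1, -0.65 for Erap1, -0.77 for B2m, -0.58 for Gpx4, -0.29 for Selenop, -1.02 for Selenos, -0.69 for Txnrd1, -0.06 for Cox4i1, -0.02 for Gmps, -0.15 for Cnot7 and -0.15 for Ube2a. Genes that had not passed did so in the direction of lung, under quantile, proteasome and spike-in scaling in turn, with -0.80, -0.73 and -1.33 for Enpep, -0.71, -0.63 and -1.23 for Selenof, -0.76, -0.69 and -1.29 for Selenot, -0.81, -0.75 and -1.34 for both Rps15 and Spcs1, and -0.77, -0.75 and -1.34 for both Eif3e and H2-D1. Probe sets that gained a call without a change of sign numbered 6 with quantile normalization, 8 with proteasome centring and 8 on the spike-ins. Among them were Igfbp2 (-0.75, -0.8 and -1.39 in turn) and Dpp4 (-0.56, -0.82 and -1.42). Selenof also passed in the direction of liver, with median centring (0.34, adjusted p = 0.014). The low side of a large difference was limited by the floor of 6.64.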
